A study of Equus caballus with 19 samples.

Results

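The colony-stimulating factors are 4 secreted proteins of the growth and survival of myeloid cells, encoded by CSF1, CSF2, CSF3 and IL34. They were chosen by gene name, and all 4 had a row among the 29196 gene names of the data. The libraries came from wild-type equine tenocytes, the resident cells of tendon, isolated from the superficial digital flexor tendon of adult Thoroughbred horses and grown in bovine type 1 collagen gels in 3D for 14 days. In the first batch, lines 1 to 5 each gave an untreated control library and a library with 1 nM IL-1β, so that each group had 5 libraries. In the second batch, lines 6 to 8 each gave a control library, a library with 1 nM IL-1β and a library in which 100 ng/ml IL1Ra, the IL-1 receptor antagonist, was added to the same IL-1β dose, so that each group had 3 libraries. Each line came from 1 donor and gave 1 library per condition, and line numbers are names given here. No library with IL1Ra alone was analysed here, so the effect of IL1Ra is given only in the presence of IL-1β.

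CSF1 (macrophage colony-stimulating factor) and IL34 share the receptor CSF1R, which is found on monocytes, macrophages and osteoclasts, and many stromal cells make CSF1 without a stimulus. CSF2 (granulocyte-macrophage colony-stimulating factor) signals through CSF2RA and CSF2RB, and CSF3 (granulocyte colony-stimulating factor) drives neutrophil production through CSF3R. Fibroblasts are known to make CSF2 and CSF3 mainly after inflammatory cytokines, and the short-lived mRNAs of both genes are targets of RNA-binding proteins that control their decay.

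Values are normalised counts, gene counts scaled by DESeq2, where the scaling can differ between genes of the same library. Changes are Log2FC, differences of log2(normalised count + 1), which understate the change of genes with low counts. A gene was called DE at an adjusted p under 0.05 and a Log2FC of at least 1 in either direction (limma with Benjamini-Hochberg adjustment over all genes tested). Library sums were 43.4 to 49.2 M (M for normalised counts × 1e6) for lines 1 to 5 and 25.0 to 34.6 M for lines 6 to 8. The batches were normalised separately, so levels were not compared between them. The fit compared libraries without regard to line, and a second fit, blocked on tenocyte line, compared libraries of the same donor. The value with the block is given where it changed a call.

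The tenocyte label was checked against 9 markers with a row, whose summed level was 1054510 to 1820700 normalised counts in first-batch controls and 507175 to 939381 with IL-1β. Most of this sum came from the type 1 collagen genes COL1A1 and COL1A2. In the line 1 control they held 582578 and 630587 of 1309940, against 822 for SCX and 792 for MKX. Of the 8 markers that could be tested in the first batch, 5 were called lower with IL-1β, among them the tendon transcription factors SCX and MKX, beside 7.9% of all genes. With the block FMOD was called lower as well (Log2FC −2.03, limma adjusted p = 0.176, 0.0208 with the block). The matrix proteoglycan genes LUM and DCN went the other way, at 0.91 (limma adjusted p = 0.0109) and 0.73 (limma adjusted p = 0.0626), each higher in 5 of 5 lines and in 3 of 3 lines of the second batch. For lines 6 to 8 the sum was 266596 to 850888 in controls, 376755 to 582450 with IL-1β and 153043 to 863115 with IL-1β + IL1Ra, and SCX was called lower with IL-1β only with the block (Log2FC −3.18, limma adjusted p = 0.653, 0.0223 with the block). The late tendon marker TNMD was listed at 0 in all 10 first-batch libraries. Of 12 leukocyte markers, 5 to 9 were listed at 0 in a library and their sum was 14.4 to 174.7 normalised counts. That sum was 43.7 to 116.3 in first-batch controls against 15.6 to 113.7 with IL-1β, and 16.4 to 110.8 in second-batch controls against 14.4 to 174.7 with IL-1β and 35.7 to 126.8 with IL-1β + IL1Ra. AIF1 and CD79B were listed at 0 in all 19 libraries, and TYROBP and CD3E reached at most 1.07. LAPTM5 reached 114.5 and was called lower with IL-1β in the first batch (Log2FC −2.06, limma adjusted p = 0.0410), but not with the block (adjusted p = 0.0569). FCER1G was higher with IL-1β in 5 of 5 and 3 of 3 lines, and reached 78.5 with IL-1β + IL1Ra in line 7. ITGAM was higher with IL-1β in 5 of 5 and 2 of 3 lines, and reached 55.3. PTPRC and MS4A1 were listed at 0 in every first-batch control and reached 3.64 and 15.7 there with IL-1β. CD163, at most 3.27, was higher in 4 of 5 lines but in 0 of 3 of the second batch. SPI1 was lower in 3 of 5 lines and higher in 2. The part of these markers in the results for the colony-stimulating factors was not tested. The sum of 6 endothelial markers was 25.8 to 135.3, and PECAM1 was called higher with IL-1β in the first batch only with the block (Log2FC 1.68, limma adjusted p = 0.115, 0.0455 with the block). The PECAM1 controls there held 1.11 to 20.8 normalised counts and would not alone have passed the filter. VWF went the other way, lower in 4 of 5 lines (Log2FC −1.53, limma adjusted p = 0.0950). In the second batch VWF was lower in 3 of 3 lines (Log2FC −1.67, limma adjusted p = 0.598). EGFL7 had a first-batch Log2FC of 0.24 (limma adjusted p = 0.624). These are bulk libraries, in which fewer cells of a type and less RNA per cell cannot be told apart.

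CSF3 had the largest change of the 4 genes. In the control gels of lines 1 to 5 it stood at 15.5, 27.6, 19.4, 31.4 and 14.1 normalised counts. With IL-1β the same lines reached 348973, 111183, 108675, 79659 and 76089. Every IL-1β library was thus above every control library, and CSF3 took 0.174% to 0.709% of all normalised counts of an IL-1β library. The Log2FC of CSF3 was 12.45 (SE 0.40, 95% confidence interval 11.57 to 13.33, limma adjusted p = 6.45e-08), with a rise in 5 of 5 lines. Within a line the log2 ratio ran from 11.26 in line 4 to 14.37 in line 1. CSF3 was the only one of the 3 members tested by the fit that was called in either direction, while 12.8% of all 14719 genes tested were called. Upward calls made up 4.91% of the genes tested. It was also the only one of these 3 whose groups did not overlap, which held for 19.5% of the genes tested.

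CSF2 had few counts in the controls, and its level with IL-1β varied widely between lines. Its control values in lines 1 to 5 were 6.94, 4.30, 0, 0.946 and 1.11 normalised counts. With IL-1β they were 854, 149, 4.14, 55.3 and 41.7. Each line was higher with IL-1β than without, but the groups overlapped, since line 3 with IL-1β stayed below the control of lines 1 and 2. Because only 4 of the 10 libraries held at least 10 normalised counts, CSF2 did not pass the filter on low values and was tested alone. The mean difference was 4.63 on the log2 scale (two-sided exact permutation test, unadjusted p = 0.0238, where 0.00794 is the smallest p of the 252 arrangements). An exact sign-flip test within the 5 lines gave p = 0.063, the smallest it allows. Without line 1, 2, 4 or 5 the permutation p was between 0.0571 and 0.0857, and without line 3 it was 0.0286. The log2 ratio within a line ran from 2.36 in line 3 to 6.75 in line 1, where the ratio of line 3 depends on the pseudocount because its control was listed at 0.

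**Figure D1:**
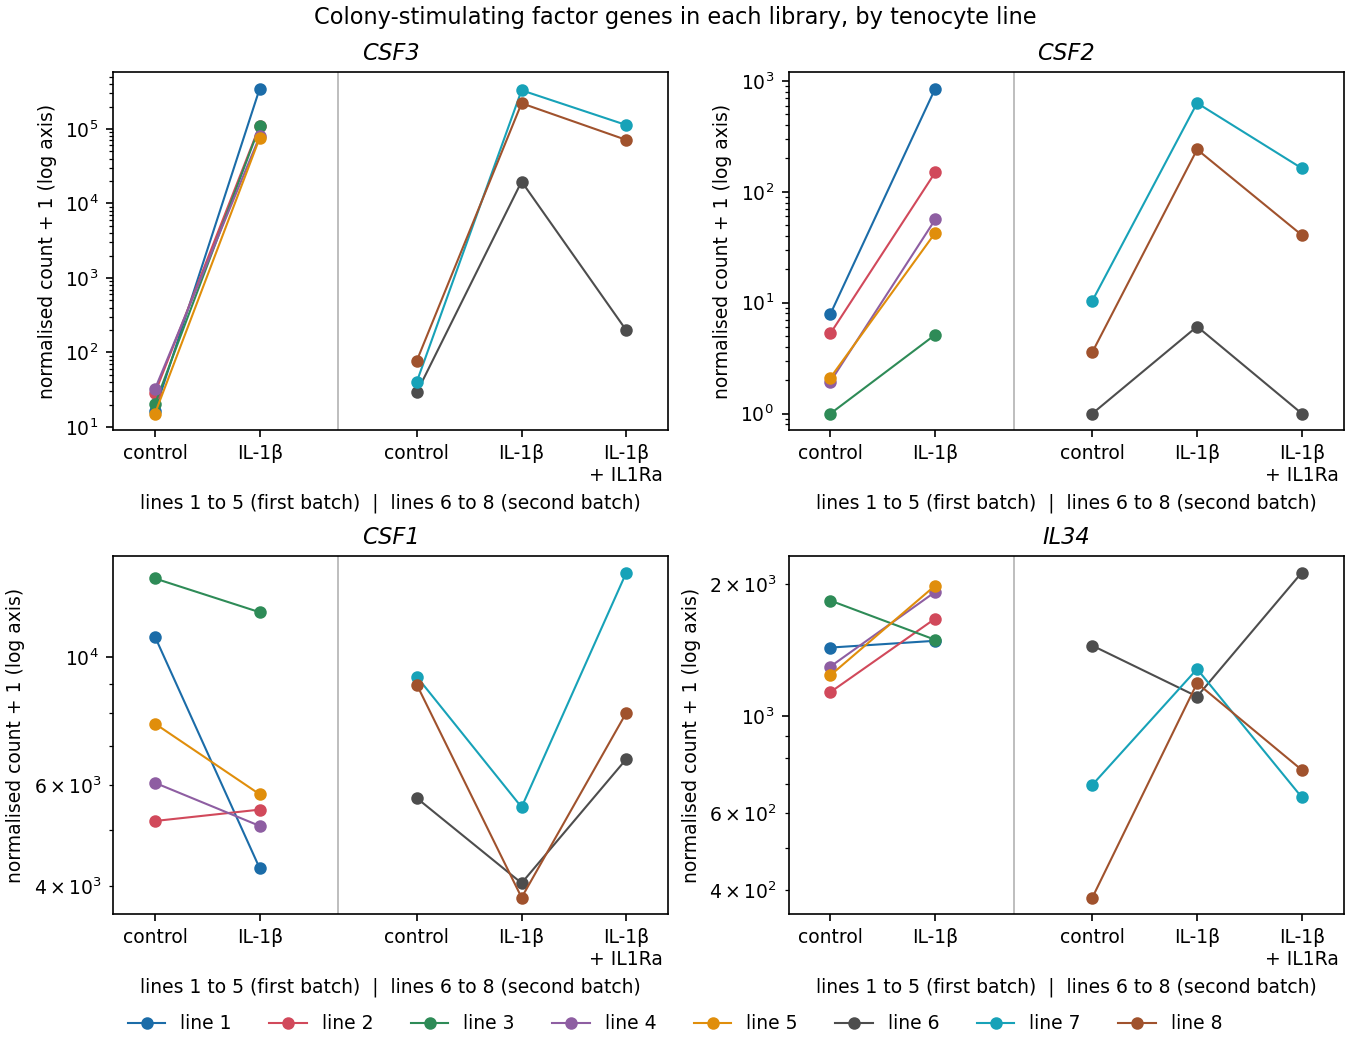
Normalised count + 1 (y axis, logarithmic, with its own range in each panel) of CSF3, CSF2, CSF1 and IL34 in every library, by condition (x axis). Each point is 1 library and each coloured line joins the libraries of a tenocyte line, with lines 1 to 5 left of the grey bar and lines 6 to 8, normalised separately, right of it. CSF3 lies at 14.1 to 31.4 in the controls of lines 1 to 5 and at 76089 to 348973 with IL-1β, whereas the CSF1 and IL34 groups of these lines overlap.

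CSF1 was present in every library whether or not IL-1β was added. The controls of lines 1 to 5 held 10858, 5191, 13709, 6049 and 7666 normalised counts. With IL-1β the values were 4295, 5433, 11976, 5089 and 5776. Line 3 was the highest in both groups and the groups overlapped, although 4 of 5 lines were lower with IL-1β. The Log2FC of −0.42 did not pass the test (SE 0.32, 95% confidence interval −1.14 to 0.29, limma adjusted p = 0.358). Line 1 had the largest difference, with a log2 ratio of −1.34, and without it the Log2FC was −0.20.

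IL34 was also present in every library. In the controls of lines 1 to 5 it stood at 1430, 1132, 1831, 1295 and 1237 normalised counts, and with IL-1β at 1482, 1666, 1490, 1917 and 1983. The groups overlapped, with 4 of 5 lines higher with IL-1β and line 3 lower. Its Log2FC was 0.31 (SE 0.14, 95% confidence interval −0.0046 to 0.63, limma adjusted p = 0.132). The upper bound of the interval lies below the Log2FC of 1 needed for a call. IL34 was the most even of the 4 genes between lines with IL-1β, with 1.34-fold between its highest and lowest line, against 2.79-fold for CSF1, 4.59-fold for CSF3 and 206-fold for CSF2.

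The responses of the 4 genes were set against each other within lines 1 to 5, which gave 6 pairs. The log2 ratio of CSF3 exceeded that of CSF2 by 7.82 ± 1.4 (SD, n = 5 lines), that of IL34 by 12.14 ± 1.4 and that of CSF1 by 12.87 ± 1.7. The ratio of CSF2 exceeded that of IL34 by 4.31 ± 1.5 and that of CSF1 by 5.05 ± 2.0. Each of these 5 differences had the same sign in 5 of 5 lines, with p = 0.063 in a two-sided exact sign-flip test, the smallest that 5 lines allow, and 0.075 after adjustment over the 6 pairs. Hence no pair could pass a threshold of 0.05 by this test. The ratio of IL34 exceeded that of CSF1 by 0.74 ± 0.57, in 4 of 5 lines (exact p = 0.125, adjusted p = 0.125). In lines 6 to 8 the corresponding differences were 6.42 ± 0.89 between CSF3 and CSF2 and 12.11 ± 1.99 between CSF3 and CSF1 (SD, n = 3 lines).

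With IL-1β, the order of lines from high to low was 1, 2, 3, 4 and 5 for CSF3 and 1, 2, 4, 5 and 3 for CSF2. Line 3 had the lowest CSF2 value in both groups and the highest SCX and MKX values in the control group, at 2110 and 4654 normalised counts. A link between these values was not tested.

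The second batch asked whether IL1Ra altered the response. For CSF3, the controls of lines 6, 7 and 8 held 28.2, 39.7 and 76.9 normalised counts. With IL-1β they held 19694, 330466 and 221118, and with IL-1β + IL1Ra 197, 112805 and 71213. All libraries of both treated groups were thus above all controls, and line 6 was far lower than lines 7 and 8 in both. With IL-1β alone the Log2FC was 11.29 (SE 2.25, 95% confidence interval 6.13 to 16.44), with a higher value in 3 of 3 lines, but the limma adjusted p of 0.0963 missed the threshold. With the tenocyte line as a block the adjusted p was 0.00954 and CSF3 was called. Without line 6 the Log2FC was 12.23 and the adjusted p 4.99e-04. With each line left out in turn the Log2FC ran from 10.43 to 12.23. Upward calls among all genes then ran from 0 to 213.

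CSF2 had the same order of lines as CSF3 in both treated groups, with line 7 highest and line 6 lowest. The controls of lines 6, 7 and 8 stood at 0, 9.41 and 2.58 normalised counts. IL-1β gave 5.10, 631 and 240, and IL-1β + IL1Ra gave 0, 162 and 39.7. CSF2 in line 6 therefore stayed near the lowest measurable counts in every condition, and the groups overlapped. It passed the filter on low values in this batch only through treated libraries. Its Log2FC with IL-1β was 4.87 (SE 2.21, 95% confidence interval −0.21 to 9.94, limma adjusted p = 0.454), higher in 3 of 3 lines. With the block the adjusted p was 0.0203 and CSF2 was called, and without line 6 the Log2FC was 6.0 and the adjusted p 0.0357. Across the lines left out, the Log2FC of CSF2 ran from 4.27 to 6.0.

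Among all 16705 genes tested in the second batch, 0.269% were called upward with IL-1β, and 2.59% with the block. Of the 4 members, 0 were called upward by the fit without the block. With the block CSF3 was called. The call of CSF2 is not read against these shares, since its controls alone would not have passed the filter. Line 6 also stood apart in tendon genes. Its control library held 4720 normalised counts of SCX and 4059 of MKX, against 266 and 105 of SCX and 151 and 11.5 of MKX in lines 7 and 8. The part of these differences in the lower CSF3 and CSF2 values of line 6 was not tested.

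**Figure D2:**
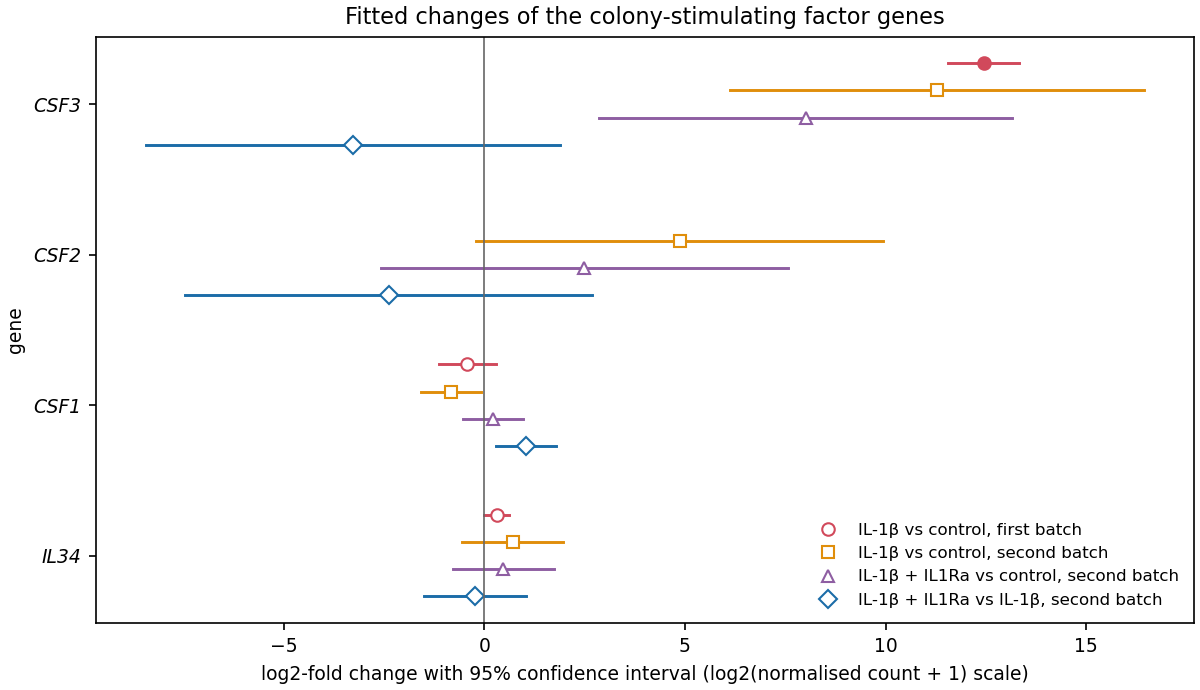
Fitted Log2FC (x axis, log2(normalised count + 1) scale) of the 4 genes (y axis) in the 4 comparisons, each by a symbol and colour of its own, from the fit without a block. Bars are 95% confidence intervals, and filled symbols mark DE genes. Only the first-batch change of CSF3, 12.45, is filled, and CSF2 has no first-batch symbol because it did not pass the filter there.

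CSF1 was lower with IL-1β in each of lines 6 to 8. The controls held 5689, 9249 and 8957 normalised counts, and the IL-1β libraries 4048, 5486 and 3820. With IL-1β + IL1Ra the values were 6654, 14041 and 8011. The IL-1β group lay below both other groups without overlap. Its Log2FC against control was −0.82 (SE 0.33, 95% confidence interval −1.57 to −0.08), with an unadjusted limma p of 0.0341 and an adjusted p of 0.386. CSF1 and CSF3 were the 2 members whose control and IL-1β groups did not overlap in this batch, which held for 16.4% of all genes tested.

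IL34 values crossed between the groups of the second batch. The controls of lines 6, 7 and 8 held 1445, 694 and 383 normalised counts, the IL-1β libraries 1106, 1278 and 1186, and the IL-1β + IL1Ra libraries 2123, 650 and 751. Lines 7 and 8 were higher with IL-1β and line 6 was lower. The Log2FC was 0.71 (SE 0.55, 95% confidence interval −0.56 to 1.97, limma adjusted p = 0.740).

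With IL1Ra added to IL-1β, CSF3 was lower than with IL-1β alone in 3 of 3 lines, but by very different amounts. Its level was 1.00% of the IL-1β level in line 6, 34.1% in line 7 and 32.2% in line 8. The log2 ratio to control that remained was 29.4% of the ratio with IL-1β alone in line 6, 88.1% in line 7 and 85.8% in line 8. The Log2FC between these groups was −3.27 (SE 2.25, 95% confidence interval −8.43 to 1.88, limma adjusted p = 1.00), and it was −1.59 without line 6 and −4.14 without line 7. CSF2 was likewise lower in 3 of 3 lines, with 0%, 25.7% and 16.6% of the IL-1β level left in lines 6, 7 and 8. Its log2 ratios between these conditions were −1.96 in line 7 and −2.56 in line 8, while the ratio in line 6, from 5.10 to a value listed at 0, is set by the pseudocount of 1. The Log2FC was −2.38 (SE 2.21, 95% confidence interval −7.45 to 2.70, limma adjusted p = 1.00). Both intervals are from the fit without the block and include the spread between donors. Within lines the log2 ratio was −2.38 ± 0.36 for CSF2, line 6 included, and −3.27 ± 2.9 for CSF3 (SD, n = 3 lines). With the block 0 of the 4 members were called between these groups.

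**Figure D3:**
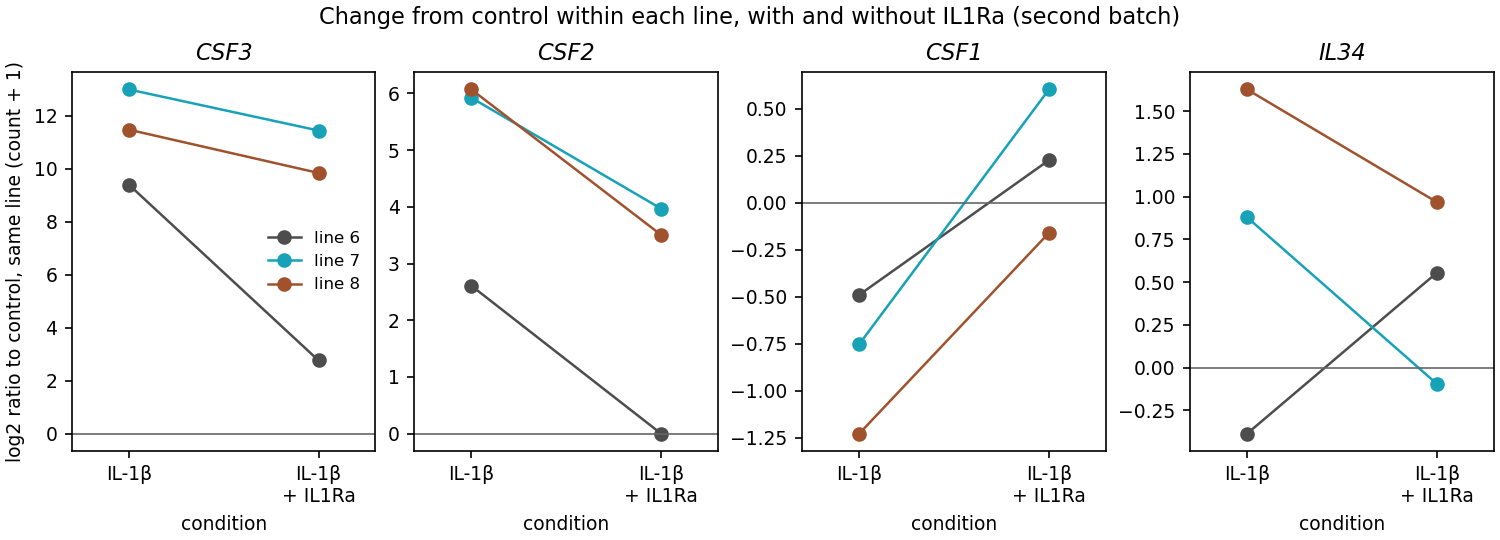
Log2 ratio of normalised count + 1 to the control of the same line (y axis, with its own range in each panel) for the 4 genes with IL-1β and with IL-1β + IL1Ra (x axis) in lines 6 to 8. Each point is 1 library, and the horizontal line at 0 marks the control. CSF3 and CSF2 are lower with IL1Ra in all 3 lines, CSF1 is higher in all 3, and IL34 moves in different directions.

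CSF1 was higher with IL-1β + IL1Ra than with IL-1β alone in 3 of 3 lines, by log2 ratios of 0.7, 1.4 and 1.1 in lines 6, 7 and 8. Its Log2FC was 1.05 (SE 0.33, 95% confidence interval 0.30 to 1.79), with an unadjusted limma p of 0.0117 and an adjusted p of 1.00. CSF1 was the only member whose IL-1β and IL-1β + IL1Ra groups did not overlap, which held for 6.47% of all genes tested. For IL34 the Log2FC was −0.23 (95% confidence interval −1.49 to 1.03, limma adjusted p = 1.00), with 2 lines lower and 1 higher, and it was 0.14 without line 7. None of the 16705 genes was called between these groups by limma (0%), while 464 genes, 2.78%, had an unadjusted p under 0.05. With the block 1 gene was called, 0.00599%.

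Against control, which is also the reference of the IL-1β comparison, the IL-1β + IL1Ra libraries still held more CSF3 in 3 of 3 lines. The Log2FC was 8.01 (SE 2.25, 95% confidence interval 2.86 to 13.16, limma adjusted p = 0.618), with an adjusted p of 0.102 with the block. Without line 6 it was 10.64 and CSF3 was called (adjusted p = 0.00117). Across the lines left out, the Log2FC of CSF3 ran from 6.30 to 10.64 and upward calls among all genes from 0 to 56. CSF2 had a Log2FC of 2.49 (SE 2.21, limma adjusted p = 1.00), higher in 2 lines and listed at 0 in both conditions in line 6. The Log2FC was 0.22 for CSF1 and 0.48 for IL34 (limma adjusted p = 1.00 for each). Of the 4 members 0 were called, as against 0.012% of all genes, and CSF3 was the only one whose groups did not overlap, against 11.8% of all genes.

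The specific receptors were at the edge of detection in these cultures. CSF1R, the receptor of CSF1 and IL34, reached at most 0.97 normalised counts in lines 1 to 5 and 2.11 in lines 6 to 8. CSF2RB, the signalling chain of the CSF2 receptor, reached 0.93 and 3.56. CSF3R was listed at 0 in every first-batch control, reached 2.95 with IL-1β and was 1.00 to 11.5 in the second batch, with no order by condition. None of these 3 receptors passed the filter in either batch. A value of 0 cannot be read as absence, since EIF2S2, a translation initiation factor subunit used by every cell and chosen after its values were seen, was listed at 0 in 3 of 10 and 6 of 9 libraries. CSF2RA was not analysed here.

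Of the alternative IL34 receptors, the phosphatase PTPRZ1 was at most 1.21 in the first batch and reached 35.5 only in the IL-1β + IL1Ra library of line 8. The heparan sulphate proteoglycan SDC1 stood at 2678 to 3492 normalised counts in first-batch controls and at 4758 to 8118 with IL-1β, without overlap. Its Log2FC was 0.86 (SE 0.14, limma adjusted p = 0.00198), higher in 5 of 5 lines but under the fold threshold. In lines 6 to 8 it was 1.28 (limma adjusted p = 0.430), with 2 of 3 lines higher. IL5, a cytokine that shares the CSF2RB chain, had a Log2FC of 0.16 in the first batch (limma adjusted p = 0.743). In the second it was −0.33 (limma adjusted p = 0.808), lower in 3 of 3 lines. The receptor chain IL5RA was listed at 0 in every library.

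Lists of other genes of these pathways, 44 in all and 40 with a row, were described in the same fits. In the first batch 33 could be tested, of which 4 were called upward and 2 downward, beside 4.91% and 7.9% of all genes. Their median Log2FC was 0.37, beside −0.0034 over all genes tested. With the block 8 were called upward and 3 downward, beside 6.0% and 10.2% of all genes. These 8 include IL15 and TSLP, whose controls alone would not have passed the filter. With lines 6 to 8, 34 could be tested, with a median of 0.15 beside −0.0084 over all genes. There 1 was called upward with IL-1β and 0 downward, beside 0.269% and 0.0718% of all genes. With the block 4 and 1 were called, beside 2.59% in each direction.

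Among RNA-binding proteins that control mRNA decay, 1 of 8 was called upward and 1 of 8 downward in lines 1 to 5. Over all genes these shares were 4.91% and 7.9%. ZC3H12A, a ribonuclease that cleaves cytokine mRNAs, went from 642 to 911 normalised counts in controls to 9159 to 12685 with IL-1β. Its Log2FC was 3.70 (SE 0.12, limma adjusted p = 6.45e-08), and it was 3.29 in the second batch (SE 0.51, limma adjusted p = 0.0493). ZFP36L2, a member of a family that binds AU-rich elements and promotes decay, fell from 1638 to 3879 to 693 to 1363, with a Log2FC of −1.56 (limma adjusted p = 0.00255). In lines 6 to 8 it was −1.45 (limma adjusted p = 0.466, 0.0361 with the block). Its relative ZFP36L1 was lower in 5 of 5 lines but under the fold threshold (Log2FC −0.82, limma adjusted p = 0.0311). In the second batch ZFP36L1 was lower in 3 of 3 lines (−0.86, limma adjusted p = 0.665). Another relative, ZFP36, had a first-batch Log2FC of 0.034 (limma adjusted p = 0.919). In the second batch ZFP36 was lower in 3 of 3 lines (−0.80, limma adjusted p = 0.504). ELAVL1, which stabilises such mRNAs, had a first-batch Log2FC of 0.15 (limma adjusted p = 0.164).

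Of 8 transcription factors known to act on the promoters of cytokine genes, 2 were called upward in lines 1 to 5 and 0 downward. The shares over all genes were 4.91% and 7.9%. NFKB1, the gene of the NF-κB subunit p50, rose by a Log2FC of 1.59 (SE 0.17, limma adjusted p = 1.87e-04). CEBPB, a C/EBP factor of the inflammatory response, rose by 1.54 (SE 0.18, limma adjusted p = 3.01e-04). Both were higher in 5 of 5 lines and in 3 of 3 lines of the second batch, at 1.49 and 1.48, where limma gave adjusted p of 0.115 and 0.295, and of 0.00652 and 0.0213 with the block. RELA, the NF-κB subunit p65, had a Log2FC of 0.06 (limma adjusted p = 0.569). ETS1 was higher in 5 of 5 lines but under the fold threshold (Log2FC 0.44, limma adjusted p = 0.0404). JUN was lower in 4 of 5 lines (Log2FC −0.32, limma adjusted p = 0.0879), and FOS and JUN were not called. In the second batch ETS1 stood at 0.91 and JUN at 0.09 (limma adjusted p = 0.249 and 0.969).

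Of 7 tested genes of receptor signalling, 1 was called downward in lines 1 to 5 and 0 upward. Over all genes 7.9% and 4.91% were called. CISH, a feedback inhibitor of STAT5 signalling, stood at 44.1 to 164.7 normalised counts in controls and 23.7 to 48.8 with IL-1β, a Log2FC of −1.64 (SE 0.41, limma adjusted p = 0.0136). SOCS1, an inhibitor of JAK kinases, had a Log2FC of −1.45 (limma adjusted p = 0.0558, 0.0268 with the block). JAK2, STAT3 and SOCS3 had adjusted p under 0.05 but Log2FC of 0.58, −0.57 and 0.55, under the fold threshold. Of the 7 genes, 0 were called in lines 6 to 8. ADAM17, a protease that releases membrane-bound CSF1, had a Log2FC of 0.48 (SE 0.09, limma adjusted p = 0.00378) in the first batch and 0.42 (limma adjusted p = 0.454) in the second.

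**Figure D4:**
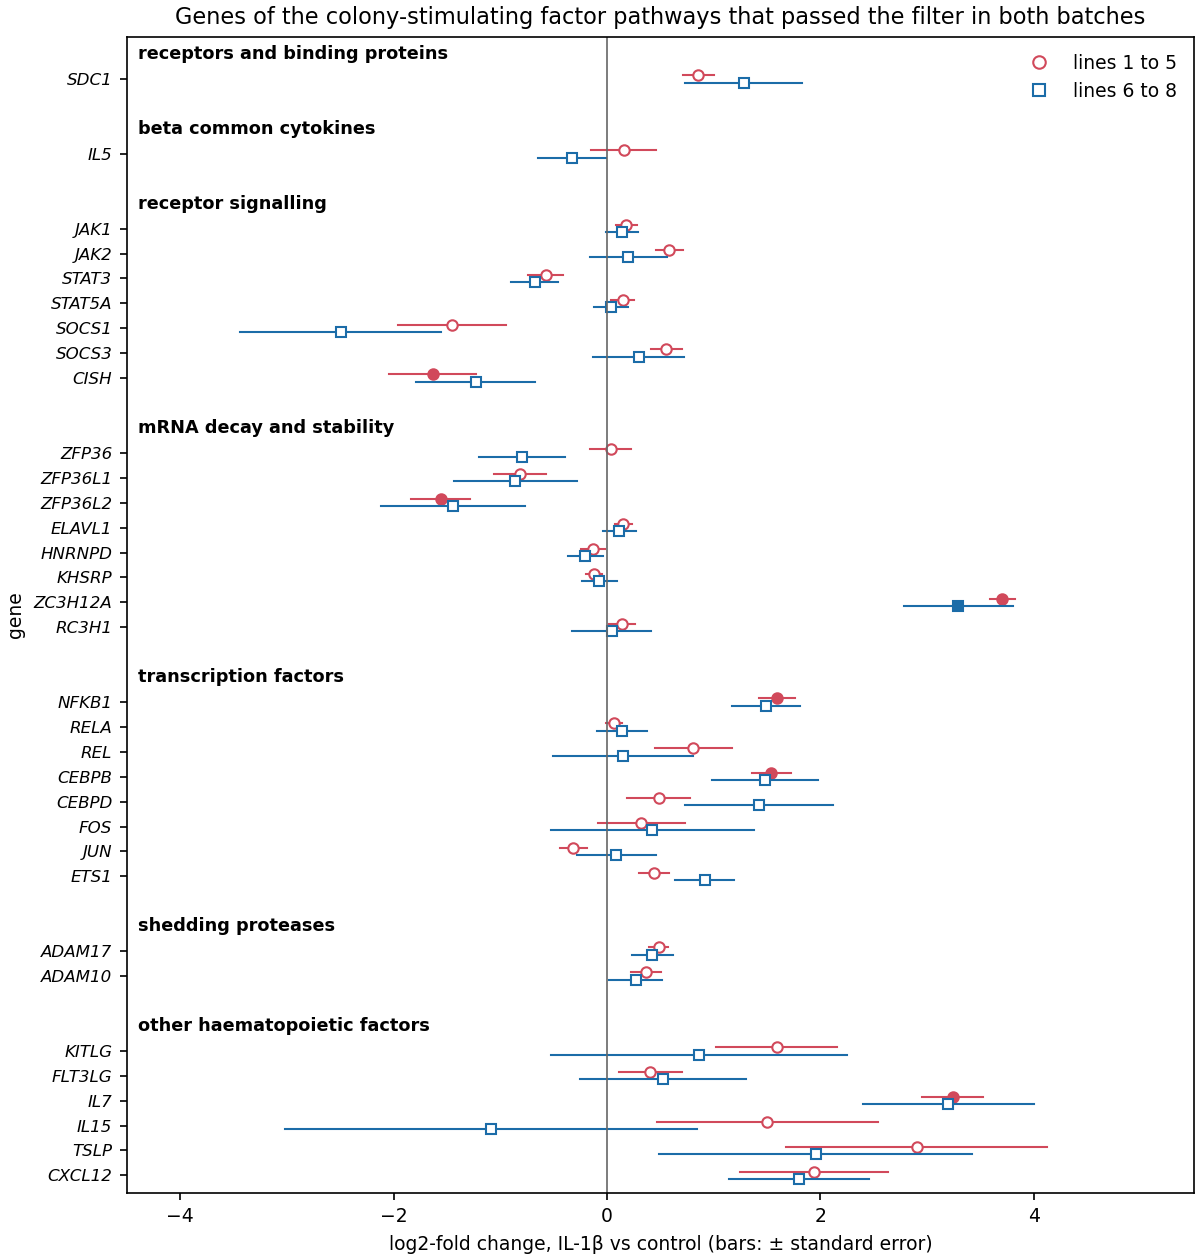
Log2FC with IL-1β against control (x axis, bars ± standard error) of the 33 genes of the pathway lists that passed the filter in both batches (y axis, grouped by role). Red circles are lines 1 to 5, blue squares are lines 6 to 8, and filled symbols are DE genes in the fit without a block. ZC3H12A, at 3.70 and 3.29, is the only gene filled in both batches.

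Of 6 tested genes for other haematopoietic factors, all had a positive Log2FC in lines 1 to 5. By the fit without the block 1 was called upward, and 5 with it, beside 4.91% and 6.0% of all genes. Of these 5, IL15 and TSLP are not read against the share, since their controls alone would not have passed the filter. Those controls held 9.58 to 183 normalised counts of IL15 and 1.89 to 498 of TSLP. IL7, a lymphocyte growth factor, rose from 13.0 to 23.5 normalised counts in controls to 115.7 to 287.5 with IL-1β, a Log2FC of 3.24 (SE 0.29, limma adjusted p = 6.43e-05). The 4 genes that the block added were KITLG, the ligand of the stem cell receptor KIT, at 1.59 (adjusted p = 2.35e-04), IL15 at 1.5 (adjusted p = 0.0445), the cytokine TSLP at 2.90 (adjusted p = 0.0334) and the chemokine CXCL12 at 1.94 (adjusted p = 0.00798). IL7 in lines 6 to 8 had a Log2FC of 3.20 (limma adjusted p = 0.167, 0.0116 with the block). KITLG, TSLP and CXCL12 had positive values there, at 0.86, 1.96 and 1.8, but IL15 stood at −1.09 and was lower with IL-1β in 3 of 3 lines, and none of these 4 was called with or without the block. THPO, the platelet growth factor, was lower in 5 of 5 lines of the first batch, where it was not tested, and in 3 of 3 of the second (Log2FC −2.04, limma adjusted p = 0.481). With IL-1β + IL1Ra against control, 0 of the 34 pathway genes tested were called, and 1 with the block, ZC3H12A at 2.36 (adjusted p = 0.0161), beside 0.21% of all genes upward.

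The genes whose pattern over the 10 first-batch libraries was most like that of CSF3 were CXCL2, MIP-2BETA and CXCL1, all chemokine genes of neutrophil recruitment. Likeness was the root-mean-square difference between centred log2 profiles, at 1.44, 1.71 and 1.84, whereas the profile of CSF3 itself had a root-mean-square of 6.26. The profiles were not scaled, so for a gene with a large change the measure depends largely on the size of that change. The first-batch Log2FC with IL-1β were 10.28, 9.38 and 9.12 for these genes and 12.45 for CSF3. In the 9 libraries of the second batch the same differences were 1.08, 1.94 and 2.10. CXCL2, MIP-2BETA and CXCL1 belong to a family of similar sequences among which reads could have been split, so their values are uncertain. For CSF1 the nearest genes were ACSF2, METTL11B and TXNDC16, at 0.18, 0.26 and 0.26, against 0.56 for CSF1 itself. In the second batch these differences were 0.46, 0.86 and 0.54, against 0.57 for CSF1 itself. For IL34 the nearest were ATAT1, DVL2 and RNF145, at 0.13, 0.14 and 0.14, against 0.26 for IL34 itself. In the second batch they were 0.87, 0.66 and 0.66, against 0.70. ATAT1 and METTL11B thus differed from the member by more than its own root-mean-square there.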

How the data were processed

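The values are signal values, deposited by the authors as DESeq2-normalised counts. Paired-end reads from stranded mRNA libraries were assigned by the authors to the EquCab3.0 transcriptome with Salmon using GC-bias correction, summed to genes with tximport and normalised with DESeq2 version 1.36 in R 4.2.1, each batch separately. Reads were not trimmed. Only 56.0% to 73.5% of low values lay within 0.05 reads of a whole read, so whole reads could not be recovered and no count test was made.

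Here log2(normalised count + 1) was tested within each batch by limma (version 3.58.1, R 4.3.3, lmFit and eBayes with trend). The filter asked for 10 or more normalised counts in 5 or more libraries of the first batch (14719 genes passed) or 3 or more of the second (16705 genes). P-values were adjusted by Benjamini-Hochberg over all genes tested. A member under the filter was tested with an exact permutation test. Fits were tested on simulated data.

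Libraries of a line share a donor, so line numbers pair the samples. Deviations from condition means correlated at 0.35 to 0.58 within a line (5 pairs) and −0.36 to 0.29 between lines (20 pairs) in the first batch, and at 0.54 to 0.79 (9 pairs) and −0.62 to 0.25 (18 pairs) in the second. The tenocyte line as a block was an alternative, as were other pseudocounts, no filter, other scalings, no trend, 2 conditions only and leaving out each line.

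The members and lists were chosen with earlier results of these data known. Named genes are the members, the listed pathway genes, the markers and the 3 named genes nearest in pattern to each member tested. CSF2RA, IL3, IL3RA, STAT5B and COL3A1 were not analysed here. Sequences and coordinates are not given because the gene table used for names is of another horse assembly.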

Additional observations from a re-analysis of the deposited data

Results flagged for a closer look

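The 5 values of each member in each condition of the first batch, and the log2 ratios of the lines, made 12 groups in which the highest or lowest line was compared with the rest, and chance sets apart a line in about 1 group of 20. CSF3 with IL-1β in line 1 stood apart at 18.41 on the log2 scale, against 16.22 to 16.76 in the other lines. Its gap was 0.751 of the range of the group, where the 95% critical value for 5 lines is 0.71. CSF1 with IL-1β in line 3 stood apart at 13.55, against 12.07 to 12.50, with a gap of 0.711 of the range.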

How the results depend on the processing

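Of the 176 values of single members recomputed under an alternative, 164 kept their direction and their side of the threshold, 6 passed it, 5 no longer passed it and 1 reversed. CSF2 in the first batch was 4.63 under the replicate block (exact sign-flip p = 0.063) and 4.09 to 5.19 with a line left out. Its fits with quantile normalisation and without trend were not run, since it lay outside the main fit. For lines 6 to 8 the block left the Log2FC with IL-1β at 4.87 for CSF2 and 11.29 for CSF3, and both were called. The call of CSF2 carries a limit, since it passed the filter in this batch only through treated libraries. CSF3 was also called when only 2 conditions were fitted (11.29, adjusted p = 0.0258). With a line left out, CSF2 was 4.27 to 6.0 and CSF3 10.43 to 12.23, and CSF3 with IL-1β + IL1Ra against control was 6.30 to 10.64. IL34 between IL-1β + IL1Ra and IL-1β was −0.82 to 0.14 and reversed to 0.141 without line 7.

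Members called upward in the first batch were 1, with 2 without a filter and 1 to 2 with a line left out. In lines 6 to 8 they were 0, with 2 under the block (CSF3 and CSF2), 1 with 2 conditions and 0 to 2 with a line left out, and 0 to 1 for IL-1β + IL1Ra against control. CSF2 is counted there although only its treated libraries brought it past the filter. Pathway genes called upward in the first batch were 4, and 8 under the block, and those downward were 2, with 1 to 3 when a line was left out. The 8 under the block include IL15 and TSLP, whose controls alone would not have passed the filter. In the second batch 1 was called upward, which became 0 with a pseudocount of 0.5, no filter, no trend or 2 conditions, 4 under the block and 0 to 5 with a line left out, and 0 downward became 1 under the block. For IL-1β + IL1Ra against control 0 became 1 under the block and 0 to 1 with a line left out.

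Over all genes in the second batch, 45 upward calls with IL-1β became 26 without trend, 28 with 2 conditions, 432 under the block and 0 to 213 with a line left out. The 12 downward calls became 22 with library-sum scaling, 6 with 2 conditions, 433 under the block and 0 to 151. For IL-1β + IL1Ra against control, 2 upward calls became 1 with library-sum scaling, 5 with quantile normalisation, 0 with 2 conditions, 35 under the block and 0 to 56 with a line left out, and 0 downward became 7 under the block and 0 to 7. Against IL-1β, 0 upward became 1 under the block and 0 to 8, and 0 downward became 0 to 2. Among the lines left out, the highest counts came without line 6 and the counts of 0 without line 7 or 8, and the cause was not tested. The block changed no other call of a member. The values of CSF1R and CSF2RB, at most 3.56 normalised counts, are too low to compare between groups, and 3 lines leave wide intervals for CSF3 and CSF2.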
